A study of Mus musculus with 12 samples.

Results

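The activation response of mouse splenic CD4+ T cells was compared between cells with and without Ikaros. For each gene, the log2 change over 24 h of activation in Ikaros-deleted cells was set against the same change in cells with intact Ikaros. The quantity described throughout is the difference of responses: the response in Cre+ cells minus the response in Cre- cells. A positive value means that the 24 h level, relative to baseline, moved further up (or less far down) in Cre+ cells. All 12 arrays of the series entered, and every one of the 23185 probe sets, of 25206 on the array, that pair with 1 mouse gene was tested.

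The 4 groups held 3 arrays each. Cre- cells had the genotype Lck-Cre-;Ikzf+/+ and Cre+ cells the genotype Lck-Cre+;Ikzf-/-, in which Cre recombinase is expressed under the T lineage promoter of Lck. Cells of each genotype were measured at baseline (0 h) or after 24 h with antibody to CD3 bound to the plate and antibody to CD28 in solution. RNA was read on whole-transcript arrays as 1 log2 value per gene. No group carried Cre with intact Ikaros, and none was cultured for 24 h without antibodies. Effects of Cre and of culture cannot be told apart from the effects compared here. The labels do not say if each array of a group is a separate animal, so the p-values measure the spread between these samples.

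Ikaros, the product of Ikzf1, is a zinc finger DNA-binding protein that recruits chromatin remodelling and histone deacetylase complexes in lymphocytes and can repress or activate its targets. Stimulation through CD3 and CD28 mimics antigen and costimulation. It drives naive T cells to leave quiescence, switch on growth and division programs, and produce cytokines, while genes of the resting state are shut down. Which cytokines a T cell can make is in part set by repressors that hold effector genes silent.

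Il3 and Csf2 are neighbouring cytokine genes on chromosome 11, and Ifng is the signature cytokine gene of type 1 responses. These genes had the 3 smallest p-values of the cytokine list, so their promoters are shown here. Each runs from 250 bases before to 50 bases after the start site of the RefSeq gene (build GRCm38.p6), 5′ to 3′ on the gene's strand. The windows are chr11:54267230-54267529 on the minus strand for Il3, chr11:54249850-54250149 on the minus strand for Csf2 and chr10:118440796-118441095 on the plus strand for Ifng. Capitals mark the core sequence to which Ikaros binds, TGGGAA or its reverse complement TTCCCA.
Il3: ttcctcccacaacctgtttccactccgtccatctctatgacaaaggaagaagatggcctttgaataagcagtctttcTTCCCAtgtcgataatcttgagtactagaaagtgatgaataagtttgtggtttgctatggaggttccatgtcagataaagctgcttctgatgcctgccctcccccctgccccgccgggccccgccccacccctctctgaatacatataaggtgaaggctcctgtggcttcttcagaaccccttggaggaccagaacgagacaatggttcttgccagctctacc
Csf2: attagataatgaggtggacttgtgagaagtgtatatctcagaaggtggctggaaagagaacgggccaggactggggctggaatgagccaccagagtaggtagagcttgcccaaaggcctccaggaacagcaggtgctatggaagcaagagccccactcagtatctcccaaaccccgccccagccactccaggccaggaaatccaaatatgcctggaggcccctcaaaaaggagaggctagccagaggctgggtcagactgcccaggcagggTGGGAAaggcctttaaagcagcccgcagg
Ifng: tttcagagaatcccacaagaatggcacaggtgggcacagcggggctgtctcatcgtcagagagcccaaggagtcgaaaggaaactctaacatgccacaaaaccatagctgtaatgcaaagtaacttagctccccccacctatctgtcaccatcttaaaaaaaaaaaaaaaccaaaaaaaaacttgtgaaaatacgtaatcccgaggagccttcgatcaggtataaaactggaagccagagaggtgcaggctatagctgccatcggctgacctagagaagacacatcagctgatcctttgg
The Il3 and Csf2 windows each hold 1 such match and the Ifng window holds 0. The same 6 letters, on either strand, occur in 25.6% of the 32851 RefSeq promoter windows of this length. The AP-1 motif, TGACTCA or TGAGTCA, has 0 matches in these 3 windows and occurs in 5.20% of all windows. A match describes letters only and does not show binding.

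The arrays were first set against their labels. Ikzf1 read 10.54, 10.52 and 10.54 in Cre- cells at baseline and 10.03, 10.22 and 10.08 after activation. In Cre+ cells it read 10.66, 10.29 and 10.13 at baseline and 10.14, 9.93 and 9.89 after activation. The genotypes overlapped in both states, and the difference of responses was 0.05 (SE 0.19, limma adjusted p = 1.00). No source used here gives the deleted part of the gene, and 1 value per gene can include undeleted parts, so this level checks no label. Markers of CD4 T cells averaged 10.06 to 10.77 on every array. Markers of B cells were also high at baseline, averaging 8.33 to 8.76, and averaged 5.32 to 6.63 in activated Cre- and 5.96 to 7.34 in activated Cre+ cells. Within groups, the Pearson r between arrays over all genes was 0.992 to 0.993 for baseline and 0.972 to 0.994 for activated cells. The activated arrays numbered 3 stood apart in both genotypes: their cell cycle genes averaged 8.85 in Cre- and 8.49 in Cre+ cells, against 6.64 to 7.30 on the other activated arrays. Xist, which marks RNA of female animals, was above 9 on 1, 2, 2 and 1 of the 3 arrays of the Cre- baseline, Cre- activated, Cre+ baseline and Cre+ activated groups. The balance of sexes thus moved along the contrast, and its part in the results is measured only by a fit with the Xist level as a covariate.

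The activation response itself was broad in both genotypes. In Cre- cells 4287 genes (18.5% of those tested) passed at a limma adjusted p under 0.05, of which 2177 rose and 2110 fell. In Cre+ cells 4795 (20.7%) passed, of which 2346 rose and 2449 fell. Across genes, which are not independent replicates, the responses correlated at a Pearson r of 0.890 and a Spearman rho of 0.733. These responses share no array. Both genotypes called 3390 genes, which is 79.1% of the Cre- list and 70.7% of the Cre+ list, and 3387 of these moved the same way. In 1880 of the 3387 the change was larger in size in Cre+ cells.

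A call in 1 genotype only is not a difference between genotypes. Activation called 897 genes in Cre- cells alone and 1405 in Cre+ cells alone. Of these 2302 genes, 2148 had the same sign of response in both genotypes and 0 passed the limma test of the difference itself at an adjusted p under 0.05, while 453 (19.7%) had an unadjusted p under 0.05.

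The difference of responses passed for 2 genes, Il3 and Ccn4, which is 0.00863% of those tested, and both were positive. No gene passed in the negative direction (0%), where 534 genes had an unadjusted limma p under 0.05 (2.30%), beside 555 in the positive direction (2.39%) and 1089 in either (4.70%). The median difference over all genes was -0.02, and the central 95% of genes lay between -0.50 and 0.55. A difference of at least 1 on the log2 scale was seen for 164 genes, of which 127 were positive and 37 negative. The median SE of a difference was 0.21, so this design separates only differences that are large beside that.

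**Figure D1:**
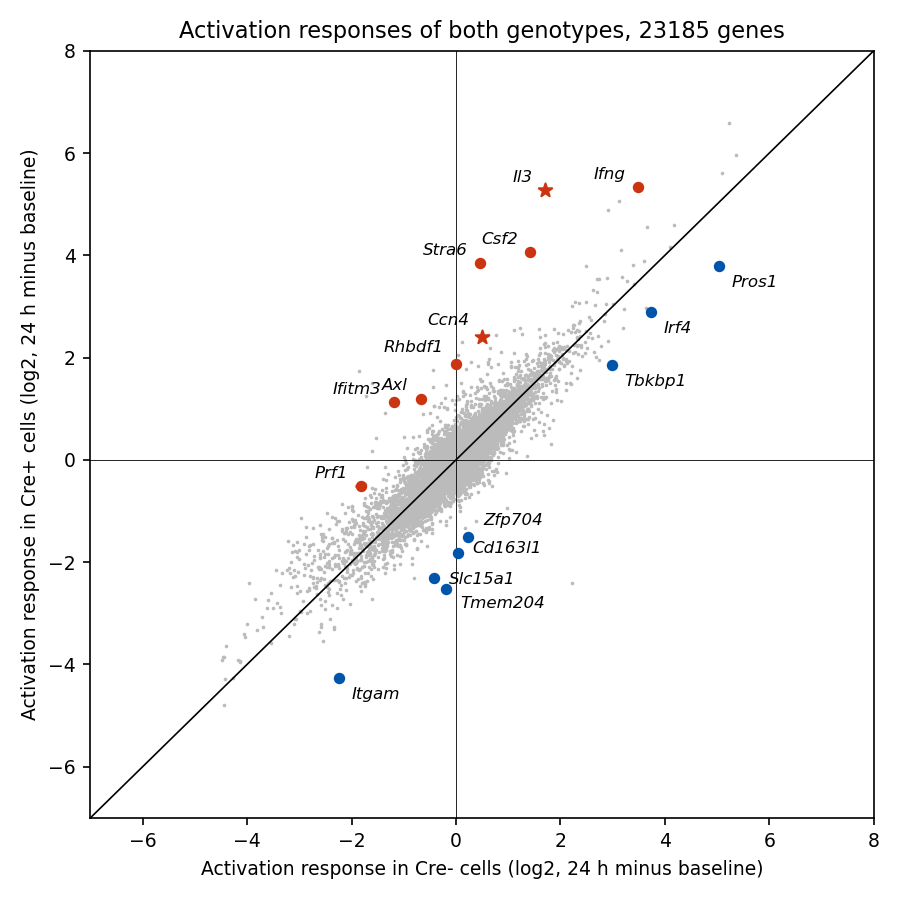
Activation responses of 23185 genes (log2, 24 h minus baseline), Cre- cells on the horizontal and Cre+ cells on the vertical axis. Grey points are single genes, the diagonal marks equal responses, stars mark Il3 and Ccn4, which passed the limma test of the difference, and coloured circles are other named genes above (red) or below (blue) the diagonal. Il3 lies at 1.70 and 5.27, and most genes lie along the diagonal. The isolated grey point at 2.21 and -2.41 is Xist, which follows the sexes of the animals.

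Il3 encodes interleukin 3, a growth factor for blood progenitors, mast cells and basophils that activated T cells secrete. At baseline it read 2.68, 2.72 and 2.81 in Cre- cells and 2.93, 2.95 and 2.39 in Cre+ cells. After activation it read 4.15, 4.24 and 4.92 in Cre- cells and 8.02, 7.58 and 8.50 in Cre+ cells. The genotypes overlapped at baseline, and after activation every Cre+ array stood above every Cre- array. Il3 rose 3.25-fold in Cre- cells and 38.7-fold in Cre+ cells, a difference of responses of 3.57 (SE 0.36, limma adjusted p = 0.00556). Leaving out each array in turn gave differences of 3.34 to 3.82. The baseline readings lie below the array medians of 4.04 to 4.17, and whether they exceed background was not tested, so the folds compare readings and not amounts of transcript.

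Ccn4 encodes a secreted matricellular protein of the CCN family, also called WISP1. It read 3.96, 3.99 and 4.06 in Cre- and 4.32, 4.39 and 4.67 in Cre+ cells at baseline. The activated arrays read 4.29, 4.59 and 4.60 in Cre- and 7.01, 6.76 and 6.81 in Cre+ cells. The Cre+ arrays already stood above the Cre- arrays at baseline, by 0.46 on average (limma adjusted p = 0.248), and the gap after activation was 2.36 (limma adjusted p = 1.2e-05). The response was 0.49 in Cre- and 2.40 in Cre+ cells, and the difference of 1.91 (SE 0.18) had a limma adjusted p of 0.00556. Both genes passed in all 21 settings that tested them. They were not tested in the fits limited to genes averaging at least 5 or 6, because both average less.

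Among the cytokine genes that did not pass, Ifng and Csf2 had the smallest p-values. Ifng encodes interferon gamma, which activates macrophages. It read 3.63, 3.89 and 3.46 in Cre- and 3.70, 3.82 and 3.42 in Cre+ cells at baseline, and 7.30, 6.71 and 7.41 in Cre- and 8.86, 9.24 and 8.85 in Cre+ cells after activation. The baselines overlapped and the activated groups did not. Ifng rose in both genotypes, 11.2-fold in Cre- and 40.4-fold in Cre+ cells. Its baseline readings lie below the array medians of 4.04 to 4.17, so these folds too compare readings and not amounts of transcript. The difference of responses was 1.86 (SE 0.28, limma adjusted p = 0.0881), and it was 2.06 with an adjusted p of 0.0480 without the activated arrays numbered 3. Ifng passed in 3 of 22 settings.

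Csf2 encodes the growth factor GM-CSF and lies next to Il3. It read 2.67, 2.71 and 2.57 in Cre- and 2.98, 2.59 and 2.69 in Cre+ cells at baseline. After activation it read 4.05, 3.92 and 4.24 in Cre- and 6.68, 5.96 and 7.79 in Cre+ cells, so the activated Cre+ arrays were all higher but spread over more than 1 log2 unit. Its rise was 2.68-fold in Cre- and 16.7-fold in Cre+ cells, which gives a difference of 2.64 (SE 0.47, limma adjusted p = 0.221). The baseline readings of Csf2 lie below the array medians of 4.04 to 4.17, so its folds also compare readings only. Csf2 passed in 4 of 21 settings, among them the fits that left out the second or the third of the activated Cre+ arrays.

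Il2, the autocrine T cell growth factor, and Tnfsf11, which encodes the osteoclast and dendritic cell factor RANKL, behaved alike in direction. Il2 read 2.79, 2.56 and 2.76 in Cre- and 2.91, 2.88 and 2.71 in Cre+ cells at baseline. At 24 h the values were 7.31, 7.91 and 8.57 in Cre- and 9.72, 8.88 and 9.66 in Cre+ cells. The activated groups did not overlap, and the difference of responses was 1.36 (SE 0.40, limma adjusted p = 0.739). Tnfsf11 rose by 1.27 in Cre- and by 2.46 in Cre+ cells, and the responses differed by 1.19 (SE 0.26, limma adjusted p = 0.328).

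Over the whole cytokine list, 10 of 28 measured genes had a positive difference at an unadjusted limma p under 0.05 and 0 a negative one, against 2.39% and 2.30% of all genes. The median difference of the list was 0.27, against -0.02 over all genes, and 20 of the 28 differences were positive, against 46.7% of all genes. Il3 alone passed after adjustment. Besides the genes above, the 10 held Il13 (0.70, SE 0.25) and Il17a (0.51, SE 0.20), and further Il6, Fasl and Il12a, which are named after their values were seen. The group means of Il17a (2.60 to 2.88) and Il6 (1.80 to 2.99) lay below the array medians of 4.04 to 4.17. Il17a changed by -0.29 in Cre- and by 0.22 in Cre+ cells. With each array left out in turn the list's median ran from 0.19 (omitting Cre+ baseline array 3) to 0.42 (omitting Cre+ activated array 2). Omitting Cre- activated array 3 gave 0.41, and array weights gave 0.46. Activation raised 13 of the 28 genes in Cre- and 17 in Cre+ cells, with median responses of 0.63 and 1.16.

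The chemokine genes encode attractants for leukocytes. All 14 measured members had a positive difference, against 46.7% of all genes, with a median of 0.55. Of the 14, 2 (Ccl1 and Ccl9) had a positive difference at an unadjusted limma p under 0.05, against 2.39% of all genes. Ccl1, the ligand of the receptor CCR8, read 3.40, 4.11 and 3.27 in Cre- and 3.65, 3.15 and 3.97 in Cre+ cells at baseline. After activation it read 6.20, 7.38 and 6.56 in Cre- and 7.89, 9.26 and 8.83 in Cre+ cells, without overlap. The difference for Ccl1 was 1.95 (SE 0.54, limma adjusted p = 0.705), and that for Ccl9, a macrophage attractant, was 2.02 (SE 0.57, limma adjusted p = 0.712). Array weights gave a median of 0.09 for the list, and with each array left out it was 0.40 to 0.65.

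**Figure D2:**
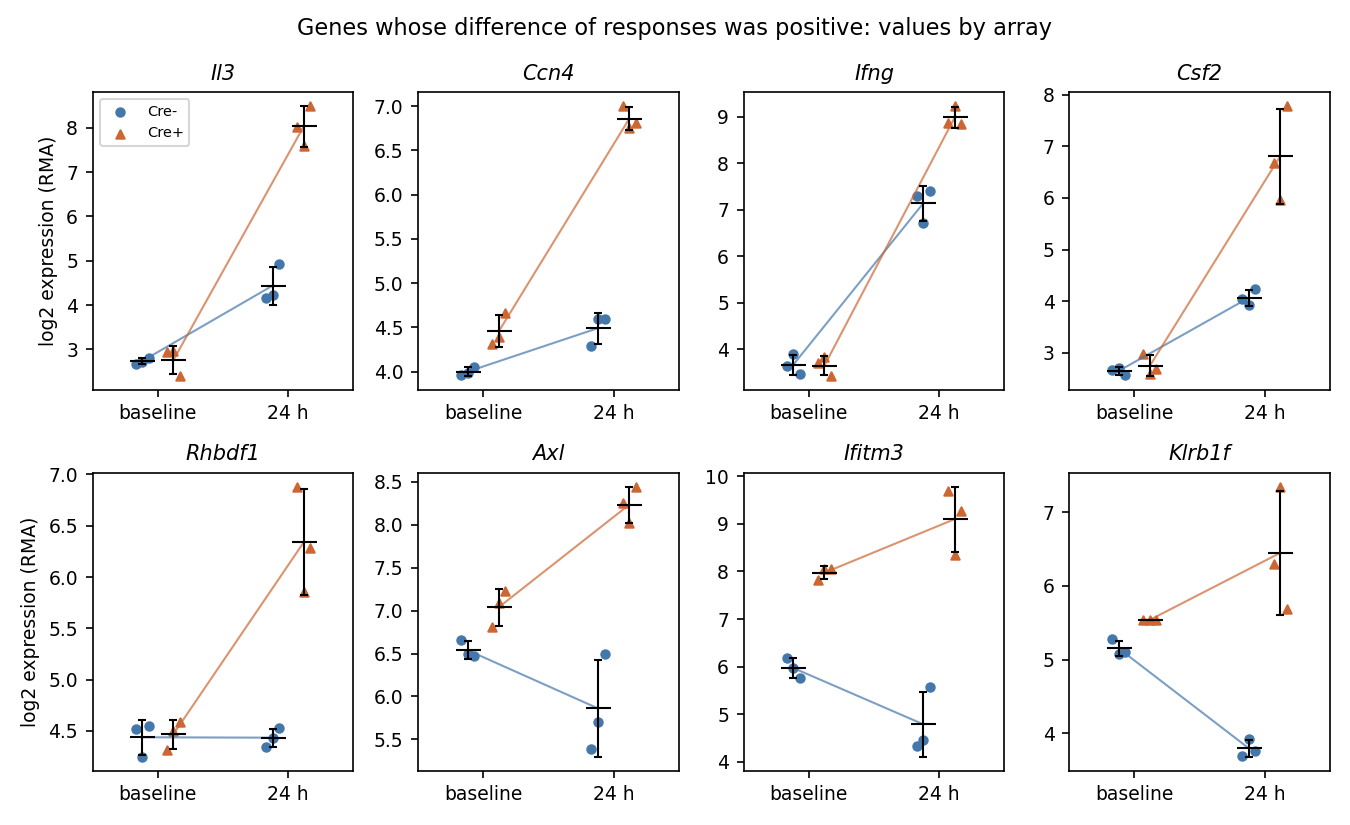
Log2 expression by array for 8 genes with a positive difference of responses, at baseline and after 24 h of activation. Circles are Cre- and triangles Cre+ arrays, horizontal bars and whiskers are the mean ± SD of 3 arrays, and lines join the means. In the Il3 panel the activated Cre+ arrays read 7.58 to 8.50 and the activated Cre- arrays 4.15 to 4.92.

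A further set of genes rose with activation in Cre+ cells and showed little or no response in Cre- cells. None of these differences passed after adjustment. Rhbdf1 encodes the inactive rhomboid protein iRhom1. It read 4.52, 4.24 and 4.55 at baseline and 4.35, 4.43 and 4.52 after activation in Cre- cells, with no mean change. Cre+ arrays read 4.31, 4.50 and 4.59 at baseline and 6.88, 5.85 and 6.28 after activation. The activated Cre+ arrays stood above all the other arrays, with a difference of 1.88 (SE 0.29, limma adjusted p = 0.111).

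Stra6 encodes the cell surface receptor for retinol bound to its carrier. It read 4.20, 3.98 and 4.09 at baseline and 4.01, 4.06 and 5.60 after activation in Cre- cells. In Cre+ cells it read 4.84, 5.28 and 4.86 at baseline and 9.48, 7.38 and 9.63 after activation. In each activated group 1 array departed from the rest: Cre- array 3 was higher and Cre+ array 2 lower. The difference of 3.38 was second in size only to that of Il3 among the named genes, with an SE of 0.76 and a limma adjusted p of 0.336. Crabp2, which encodes a retinoic acid binding protein, rose in both genotypes, with a difference of 1.98 (SE 0.57, limma adjusted p = 0.729). Over the 19 measured genes of the retinoid and TGF-beta receptor list, 2 were positive (Stra6 and Crabp2) and 1 negative (Rxra) at an unadjusted p under 0.05, and the median was -0.16. Without Cre+ activated array 3 that median was 0.03.

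Ier3, an immediate early gene linked to cell survival, rose in both genotypes. It read 3.76, 3.86 and 3.68 at baseline and 4.69, 4.27 and 4.64 after activation in Cre- cells. The Cre+ values were 4.07, 4.63 and 4.29 at baseline and 6.28 to 7.03 after activation. The activated groups were well apart, and the difference of responses was 1.67 (SE 0.29, limma adjusted p = 0.221). Of the 22 measured immediate early and stress genes, 6 had a positive difference and 0 a negative one at an unadjusted p under 0.05, against 2.39% and 2.30% of all genes. In all, 19 of the 22 differences were positive, against 46.7% of all genes. Their median was 0.37, and the other 5 of the 6 were Junb (0.55), Gadd45b, Fosb, Klf4 and Jund.

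Nupr1, a stress-response gene of the ATF4 program, gave a difference of 1.59 (SE 0.30, limma adjusted p = 0.299). It read 4.19 to 4.55 in activated Cre- and 5.43 to 6.44 in activated Cre+ cells, from baselines of 3.87 to 4.25 in both. Ece1, which encodes the protease that activates endothelin, read 7.09 to 7.24 in activated Cre- and 7.90 to 8.08 in activated Cre+ cells, which gives a difference of 0.83 (SE 0.14, limma adjusted p = 0.196). Fhl2, a LIM domain cofactor gene, was lower in Cre+ cells at baseline and higher after activation on every array, with a difference of 1.11 (SE 0.20, limma adjusted p = 0.227).

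Mir155, the gene of a microRNA induced in activated lymphocytes, was chosen after its values were seen. Its probe set read 4.41, 4.52 and 4.85 in Cre- and 4.86, 4.57 and 4.10 in Cre+ cells at baseline. At 24 h it read 7.26, 7.15 and 6.87 in Cre- and 8.40, 8.09 and 8.43 in Cre+ cells, again with overlap at baseline alone. The gene rose by 2.50 in Cre- and by 3.80 in Cre+ cells, and the responses differed by 1.30 (SE 0.28, limma adjusted p = 0.325). The array reads RNA of the gene and does not measure the mature microRNA.

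Some genes moved in opposite directions in Cre- and Cre+ cells. Among the 3390 genes called in both responses, 3 had opposite signs: Ifitm3, Cyp3a44 and Vmn2r93, the last chosen after its values were seen. Ifitm3 encodes an interferon-induced membrane protein that restricts virus entry. It read 6.18, 5.98 and 5.76 at baseline and 4.33, 4.46 and 5.58 after activation in Cre- cells, a fall. In Cre+ cells it read 7.82, 8.06 and 8.04 at baseline and 9.68, 8.35 and 9.27 after activation, a rise. The genotypes did not overlap in either state, and the difference was 2.31 (SE 0.49, limma adjusted p = 0.325). Of the 28 measured interferon-stimulated genes, Ifitm3 was the only one with an unadjusted p under 0.05, and the list's median was -0.07. Cyp3a44 (difference -1.04) and Vmn2r93 (-0.70) read below 3 on every array.

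Axl encodes a receptor tyrosine kinase of the TAM family that binds Gas6 and protein S. It read 6.66, 6.49 and 6.47 at baseline and 5.39, 5.70 and 6.49 after activation in Cre- cells, a response of -0.68 that did not pass (limma adjusted p = 0.0671). Its Cre+ level rose from 6.80, 7.09 and 7.22 to 8.25, 8.02 and 8.44. The genotypes did not overlap in either state. The difference was 1.87 (SE 0.33, limma adjusted p = 0.221), and it was 2.09 with an adjusted p of 0.0104 without the activated arrays numbered 3. Otherwise Axl passed only with array weights and without Cre- activated array 3. Pros1 encodes protein S, a ligand of Axl, and was chosen after its values were seen. It differed the other way: it rose by 5.03 in Cre- and by 3.79 in Cre+ cells, which gives a difference of -1.25 (SE 0.28, limma adjusted p = 0.328). Pros1 read 3.40, 4.21 and 3.74 in Cre- and 4.84, 4.82 and 4.66 in Cre+ cells at baseline, and the activated groups overlapped.

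Klrb1f, which encodes a C-type lectin receptor of the NKR-P1 family, was also chosen after its values were seen. It fell in Cre- cells from 5.27, 5.08 and 5.11 to 3.70, 3.93 and 3.76. The Cre+ arrays gave 5.54 on all 3 arrays at baseline and 6.30, 7.35 and 5.69 after activation. The difference of 2.27 (SE 0.42, limma adjusted p = 0.273) passed in 4 of 22 settings. Btla, which encodes an inhibitory receptor, gave -0.15 in Cre- cells and rose by 0.59 in Cre+ cells, and the responses differed by 0.75 (SE 0.16, limma adjusted p = 0.325).

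Genes whose fall was smaller in Cre+ cells include Prf1, the gene of perforin, with which killer cells perforate their targets. It read 7.03, 7.25 and 7.02 in Cre- and 5.41, 5.67 and 5.64 in Cre+ cells at baseline. After activation it read 5.37, 5.49 and 4.98 in Cre- and 5.26, 5.17 and 4.74 in Cre+ cells. The genotypes were apart at baseline and overlapped after activation. Prf1 fell by 1.82 in Cre- and by 0.52 in Cre+ cells, which gives a difference of 1.31 (SE 0.23, limma adjusted p = 0.221). It passed without the activated arrays numbered 3, with the same size and an adjusted p of 0.0375. Array weights were the only other setting in which Prf1 passed. Cpm, which encodes a membrane carboxypeptidase and was chosen after its values were seen, had the same shape, with responses of -1.74 and -0.47 and a difference of 1.27 (SE 0.25, limma adjusted p = 0.325).

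The largest group of named negative differences consists of genes that read higher in Cre+ cells at baseline and lost all or part of that excess on activation. Cd163l1, Zfp704, Tmem204 and Slc15a1 came closest to passing, each with a limma adjusted p of 0.0525, and they are the 4 genes with adjusted p between 0.05 and 0.06. Every Cre- reading of these 4 genes, in both states, lay below the array medians of 4.04 to 4.17. Whether those readings exceed background was not tested, so a fall in Cre- cells could be missed. Cd163l1 encodes a scavenger receptor of the family found on gamma delta T cells. It read 3.55, 3.51 and 3.87 at baseline and 3.99, 3.62 and 3.45 after activation in Cre- cells. In Cre+ cells it fell from 6.01, 5.72 and 5.43 to 3.95, 3.97 and 3.78. The baseline groups were apart and the activated groups overlapped, with a difference of -1.86 (SE 0.25).

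Tmem204, which encodes a membrane protein of cell junctions, had the widest swing of the 4. It read 3.66, 3.83 and 3.29 at baseline and 3.34, 3.39 and 3.45 after activation in Cre- cells. In Cre+ cells it fell from 6.75, 6.77 and 6.36 to 3.97, 4.66 and 3.68. Every Cre+ array still stood above every Cre- array after activation, by a mean of 0.71 that did not pass (limma adjusted p = 0.311). The difference of responses was -2.32 (SE 0.32).

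Slc15a1 encodes the intestinal type transporter of small peptides. It read 2.85, 3.16 and 3.07 at baseline and 2.22, 2.65 and 2.96 after activation in Cre- cells. Its Cre+ level fell from 5.29, 5.41 and 5.01 to 2.71, 3.10 and 2.96, into the range of the Cre- arrays. The difference was -1.90 (SE 0.26). The zinc finger gene Zfp704 kept part of its excess: it read 3.36 to 3.73 in Cre- and 6.35 to 6.50 in Cre+ cells at baseline, and 3.73 to 3.97 and 4.54 to 5.28 after activation. The gap after activation, 1.10, still passed between genotypes (limma adjusted p = 0.0118), and the difference of responses was -1.75 (SE 0.24).

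Itgam encodes the integrin subunit CD11b and is also a myeloid marker. It fell in both genotypes, from 6.23, 5.42 and 5.65 to 3.38, 3.67 and 3.54 in Cre- cells and from 8.74, 8.47 and 8.28 to 4.30, 4.59 and 3.80 in Cre+ cells. The fall was 4.72-fold in Cre- and 19.3-fold in Cre+ cells, and the responses differed by -2.03 (SE 0.33, limma adjusted p = 0.125). The activated Cre- readings of Itgam lie below the array medians of 4.04 to 4.17, so its folds compare readings only. Of the 13 measured myeloid markers, Itgam was the only one with a negative and Cd14 (0.70) the only one with a positive difference at an unadjusted p under 0.05. The group means of Cd14 (2.87 to 3.89) lay below the array medians. The mean over the genes of the myeloid list, Itgam included, was 5.07 to 5.37 in Cre- and 5.14 to 5.77 in Cre+ cells at baseline. After activation it was 3.64 to 3.81 and 3.85 to 3.93. Itgam itself raises this mean in Cre+ cells at baseline. By the median over the list, Cre+ differed from Cre- cells by -0.02 at baseline and by 0.08 after activation. Csf1r, a defining macrophage gene, had baseline means of 6.23 (Cre-) and 5.99 (Cre+) and activated means of 3.99 and 4.07. The part of myeloid RNA in the Itgam result was not tested. Adgrg3, an adhesion receptor gene chosen after its values were seen, fell by 0.83 in Cre- and by 2.04 in Cre+ cells, which gives a difference of -1.20 (SE 0.25, limma adjusted p = 0.325).

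Of the 5 measured markers of gamma delta T cells, Cd163l1 and Sox13 (-0.75, SE 0.18) had a negative difference at an unadjusted p under 0.05. Blk (0.69), which is also in the B cell marker list, had a positive one. The shares over all genes were 2.30% negative and 2.39% positive. The median of the 5 was -0.44. Without Cre+ activated array 1 the median was -0.16, and on omitting Cre+ activated array 2 it was -0.72. In RNA from mixed cells, fewer cells of a type and less RNA per cell cannot be told apart, here and for every other marker list.

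**Figure D3:**
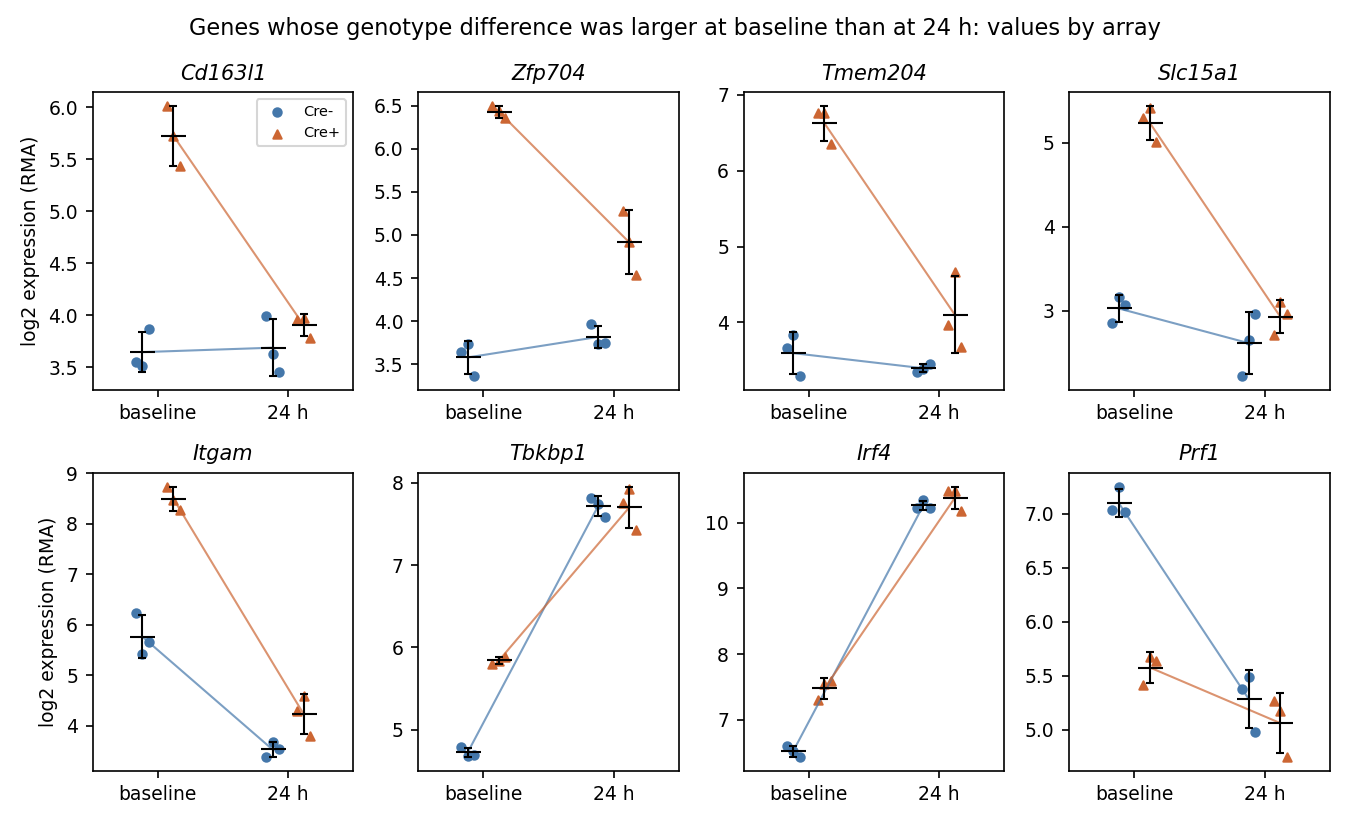
Log2 expression by array for 8 genes whose genotype difference was larger at baseline than after 24 h of activation. Circles are Cre- and triangles Cre+ arrays, horizontal bars and whiskers are the mean ± SD of 3 arrays, and lines join the means. For 7 of the genes the Cre+ arrays are the higher ones at baseline, and for Prf1 the lower ones; Cd163l1, Slc15a1, Tbkbp1, Irf4 and Prf1 overlap between genotypes at 24 h.

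The named genes with a smaller rise in Cre+ cells also read higher in them at baseline. Tbkbp1 encodes an adaptor of the kinase TBK1. It read 4.79, 4.68 and 4.70 in Cre- and 5.80, 5.83 and 5.88 in Cre+ cells at baseline. On activation the readings became 7.82, 7.74 and 7.58 in Cre- and 7.75, 7.93 and 7.43 in Cre+ cells, with full overlap. The rise was 7.95-fold in Cre- and 3.63-fold in Cre+ cells, and the responses differed by -1.13 (SE 0.18, limma adjusted p = 0.111).

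Irf4, the transcription factor that scales effector programs with T cell receptor signal strength, showed the same pattern. It read 6.61, 6.53 and 6.43 in Cre- and 7.30, 7.54 and 7.59 in Cre+ cells at baseline. After activation it read 10.23, 10.34 and 10.23 in Cre- and 10.47, 10.47 and 10.17 in Cre+ cells. The activated groups overlapped, and the difference was -0.85 (SE 0.17, limma adjusted p = 0.325). Serpinb6b, of the serpin family of protease inhibitors, rose by 2.74 in Cre- and by 1.96 in Cre+ cells, which differ by -0.78 (SE 0.18, limma adjusted p = 0.347). Irf4 was the only 1 of 20 measured activation markers with an unadjusted p under 0.05. The median difference of that list was -0.05, with 17 genes raised by activation in Cre- and 18 in Cre+ cells, so the markers of activation as a list responded in both genotypes.

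The remaining genes among the 10 smallest negative p-values had other shapes. Bphl, a hydrolase gene, fell by 0.45 in Cre- and by 1.25 in Cre+ cells from overlapping baselines, a difference of -0.80 (SE 0.16, limma adjusted p = 0.325). Zfp97, a zinc finger gene, gave 0.39 in Cre- cells and fell by 1.20 in Cre+ cells, which gives a difference of -1.59 (SE 0.32, limma adjusted p = 0.325).

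Counted by shape, the 114 genes with a difference of at least 1 in size and an unadjusted limma p under 0.05 fell into 6 classes by the signs of both responses, passing or not. A larger rise in Cre+ cells was seen for 33, a fall in Cre- with a rise in Cre+ cells for 33, and a smaller fall in Cre+ cells for 19. A rise in Cre- with a fall in Cre+ cells was seen for 13, a larger fall in Cre+ cells for 10 and a smaller rise for 6. Over all 23185 genes the same classes held 17.4%, 12.6%, 16.7%, 15.3%, 21.4% and 16.6%. Without the minimum size, the 1089 genes at an unadjusted p under 0.05 included 295 with a fall in Cre- and a rise in Cre+ cells and 325 with the reverse, and 555 positive differences beside 534 negative ones.

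The B cell markers showed the largest list median, 0.92. All 13 measured members had a positive difference, and 6 (Cd79b, Ebf1, Bank1, Cr2, Cd74 and Blk) had an unadjusted limma p under 0.05, against 2.39% of all genes. Cd79b, a subunit of the B cell receptor, read 9.28, 9.27 and 9.09 in Cre- and 8.91, 9.17 and 9.07 in Cre+ cells at baseline. At 24 h the arrays gave 5.73, 6.27 and 6.91 in Cre- and 7.64, 6.69 and 7.89 in Cre+ cells, with overlap in both states. It fell by 2.91 in Cre- and by 1.64 in Cre+ cells, and the responses differed by 1.27 (SE 0.44, limma adjusted p = 0.919). Ebf1, a defining B lineage transcription factor gene, gave a difference of 1.14 (SE 0.42). The median response of the list was -2.60 in Cre- and -1.64 in Cre+ cells.

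Cd80 and Cd86 encode the ligands of CD28 and are expressed by stimulated B cells as well as by stimulated T cells. Cd80 (difference 0.99, limma adjusted p = 0.325) and Cd86 (0.89, limma adjusted p = 0.325) were both chosen after their values were seen. Cd86 read 5.31 to 5.91 in activated Cre- and 6.21 to 6.36 in activated Cre+ cells, from baseline means of 5.96 and 5.72. The part of B cell RNA in these and the other positive differences was not tested. The B cell markers read higher in activated Cre+ than in activated Cre- cells by a median of 0.70.

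The lists of helper T cell lineages are read against 2.39% of all genes with a positive and 2.30% with a negative difference at an unadjusted p under 0.05. Lists share genes, so their counts are not separate: Ifng, Tnfsf11, Fasl, Il13 and Il17a are also in the cytokine list. Of 13 Th1 genes, 3 (Ifng, Tnfsf11 and Fasl) had a positive and 0 a negative difference at an unadjusted p under 0.05, with a median of 0.20. Omitting Cre+ activated array 2 gave 0.09, and omitting Cre+ activated array 3 gave 0.42. Of 12 Th2 genes, 2 were positive (Il13 and Ptgdr2) and 2 negative (Gata3 and Ccr8), with a median of 0.03. The group means of Ptgdr2 (2.78 to 3.24) lay below the array medians of 4.04 to 4.17. Of 11 Th17 genes, 2 were positive, Tmem176b and Il17a, the latter with group means below the array medians. The list's median was 0.22, and it was 0.14 without Cre- activated array 3. Of 18 regulatory T cell genes, 1 was negative (Itgae) and the median was -0.26, which was 0.01 without Cre+ activated array 3. Of 13 follicular helper genes, 3 were positive (Btla, Cxcr5 and Cd200), with a median of 0.30 that was 0.11 without the activated arrays numbered 3.

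Killer cell genes held members on both sides. Of 16 cytotoxic genes, 2 were positive (Prf1 and Fasl) and 2 negative (Serpinb6b and Gzmd) at an unadjusted p under 0.05. The shares over all genes were 2.39% and 2.30%. Gzmd averaged 1.58 to 2.06 in the 4 groups, below the array medians of 4.04 to 4.17. In all, 13 of the 16 differences were positive, against 46.7% of all genes, with a median of 0.41. Of the 7 measured NK cell markers, Klrd1 (1.26, SE 0.48) was positive, and the NK list averaged 2.93 to 3.56 in activated Cre- and 3.21 to 3.85 in activated Cre+ cells. The 2 CD8 T cell markers differed by a median of 0.09, and none of the erythroid and platelet or CD4 T cell markers had an unadjusted p under 0.05.

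The growth and metabolic programs of activation held few members with a low p-value. Of 29 cell cycle genes, 0 had an unadjusted p under 0.05 in either direction, and the median difference was 0.02. Omitting Cre+ activated array 3 gave -0.47 and omitting Cre- activated array 3 gave 0.74, the arrays on which the cell cycle genes read highest. The SEs of the cell cycle differences ran from 0.19 (Ccnd2) to 1.25 (Ccna2), mostly well above the median SE of 0.21 over all genes. Large differences could thus be missed in this list. Of 22 ribosome biogenesis genes 0 had an unadjusted p under 0.05, although activation raised 21 of them in Cre- and all 22 in Cre+ cells. Of 22 cholesterol and fatty acid synthesis genes 0 did so, and of 17 glycolysis genes 1 did (Slc16a3, the lactate exporter gene, -0.76, SE 0.26). Their medians were 0.09, 0.05 and -0.10.

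Further lists are read against 2.39% of all genes with a positive and 2.30% with a negative difference at an unadjusted p under 0.05. Of 21 T cell receptor signalling genes, 2 were positive (Malt1, 0.57, and Nfkbia), with a median of 0.00. Of 13 genes of the IL-2 receptor and STAT5 pathway, Il2 alone had an unadjusted p under 0.05, and Il2ra, the alpha chain of the IL-2 receptor, rose by 2.33 in Cre- and by 2.07 in Cre+ cells. None of the 5 Ikaros family, 13 Notch pathway or 18 naive and quiescence genes had an unadjusted p under 0.05, and their medians were -0.26, -0.07 and -0.10. Omitting Cre+ activated array 2 gave an Ikaros family median of -0.61, omitting Cre+ activated array 3 gave -0.03, and array weights gave -0.76. The naive gene median was 0.20 without Cre+ activated array 3. Of 16 inhibitory receptor and anergy genes 2 were positive (Btla and Cd200), and of 18 chemokine receptor and homing genes 1 was positive (Cxcr5) and 2 negative (Itgae and Ccr8). The ATF4 response had 2 positive of 22 (Nupr1 and Mthfd2), and the p53 targets had 2 positive (Pmaip1 and Cdkn1a) and 1 negative (Ei24) of 13. Over the 32 lists, leaving out 1 array or another turned the sign of the median for 17, the cell cycle, ribosome, cholesterol, interferon, Notch and T cell receptor lists among them. The cytokine, chemokine, immediate early, cytotoxic and B cell medians were positive with any 1 array left out. So were the medians of the Th1, Th17, follicular helper, p53, NK and myeloid lists. The Ikaros family, activation marker, gamma delta and glycolysis medians were negative with any 1 array left out.

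**Figure D4:**
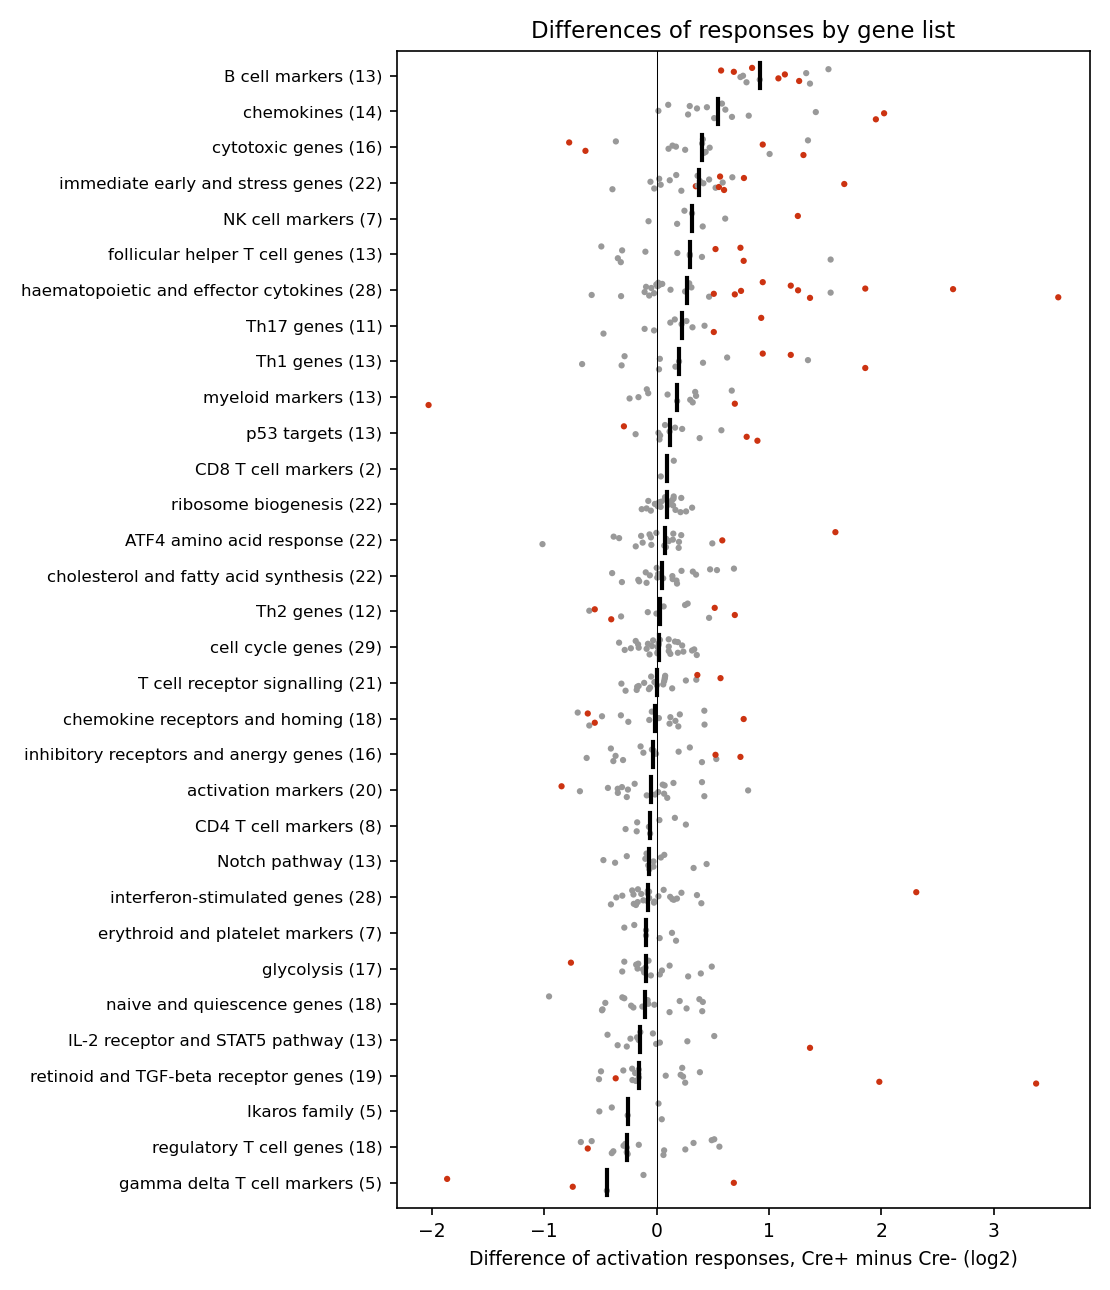
Difference of responses (log2, Cre+ minus Cre-) for the measured members of 32 gene lists, with the number measured in brackets. Each point is a gene, red where the unadjusted limma p is under 0.05 and grey otherwise, and the black bar is the list's median. The B cell markers have the highest median, 0.92, and the cytokine list holds the single highest member, Il3 at 3.57.

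The number of genes passing depended on which arrays entered. With all 12 arrays weighing the same, 2 passed. Without the activated arrays numbered 3 of both genotypes 11 passed, 8 positive (Il3, Ccn4, Ifng, Csf2, Axl, Prf1, Klrb1f and the immunoglobulin segment Igkv6-13, which the naming rule leaves out) and 3 negative (Cd163l1, Zfp704 and Tbkbp1). Without Cre+ activated array 2 alone 25 passed, 18 positive and 7 negative, among them Csf2, Rhbdf1, Ier3 and Stra6 on the positive side and Tmem204, Slc15a1 and Itgam on the negative. With array weights 143 passed, 95 positive and 48 negative. Array weights ran from 0.235 for Cre- activated array 3 to 3.79 for Cre+ activated array 1. Cre- activated array 2 weighed 3.08, beside 0.859 and 0.235 in its group, and the other activated Cre+ arrays weighed 0.392 and 0.517. For the activated state that fit thus leans on Cre- array 2 and Cre+ array 1, on which Xist read 10.01 and 2.87.

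**Figure D5:**
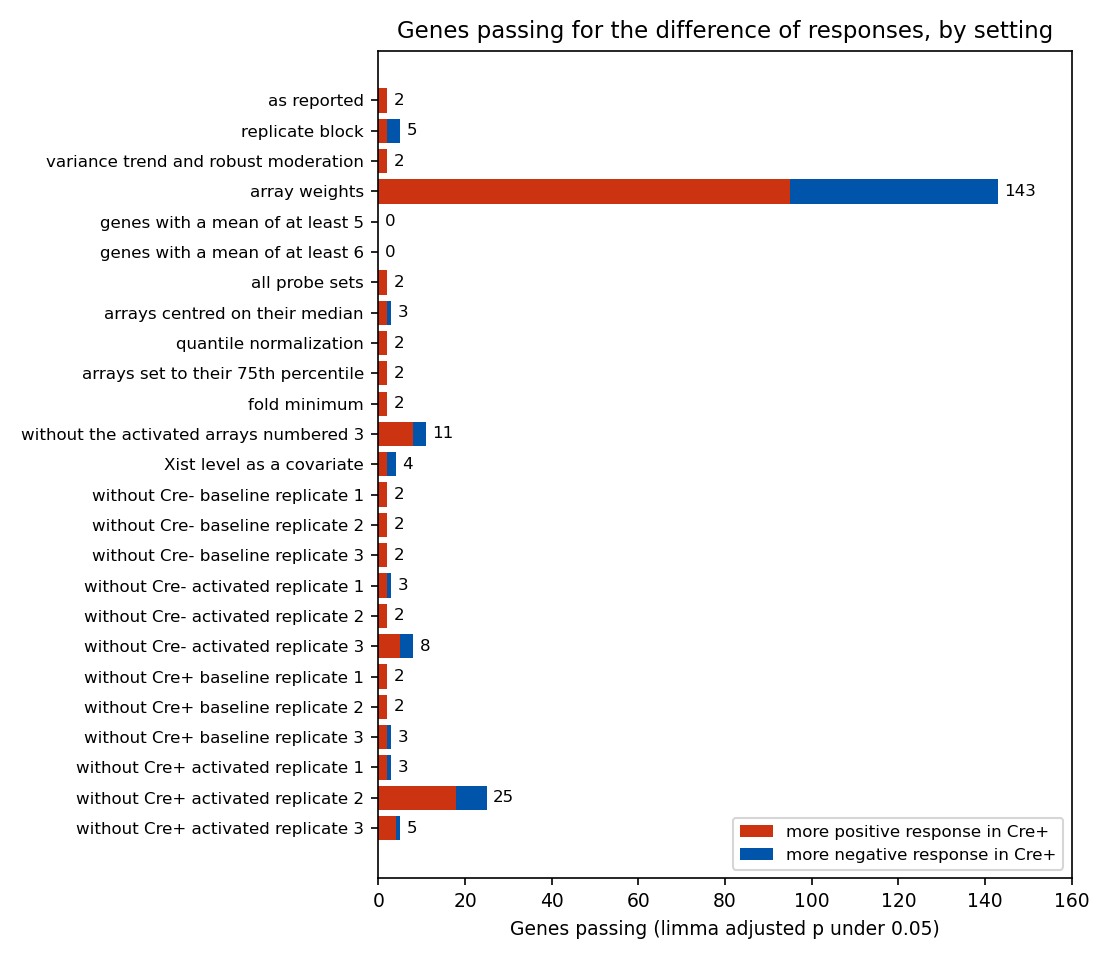
Number of genes passing for the difference of responses (limma adjusted p under 0.05) under each setting, with positive differences in red and negative ones in blue. The fit as reported gives 2 genes, array weights give 143, and the fits limited to genes averaging at least 5 or 6 give 0.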

How the data were processed

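Log2 expression values of 12 whole-transcript arrays were used as deposited by the authors, who summarised probe intensities with RMA (affy 1.36.1, R 2.15.1), per the submitters' processing notes. For the chip definition and the genome build, the sources used here give no name. The labels of genotype and state set the groups. Of 25206 probe sets, 23185 pair with 1 gene in GEO's platform annotation and were tested, and 2021 list no gene.

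All 12 arrays entered 1 model of group means in limma 3.58.1 under R 4.3.3, with 8 residual and 3.55 prior degrees of freedom. The contrast was the response in Cre+ minus that in Cre- cells. Tests are two-sided, with Benjamini-Hochberg adjustment over 23185 genes and a threshold of 0.05. SE values are moderated. The scripts were tested on simulated data.

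Gene lists are described by counts and medians, without a set test. Of their genes 453 distinct ones were measured, some of them in several lists. The genes named are Ikzf1, genes that passed, the 10 smallest p-values in each direction, up to 4 members of each list, chosen cytokines and markers of other cell types, leaving out predicted genes, pseudogenes, receptor segments and small RNAs. Others are said to be chosen after their values were seen, or are list members named only to show a count. The comparison, the lists, the rule and the alternatives were chosen with earlier results of these data known. The alternatives tried were a block for the replicate number, limma's trended robust moderation, weights per array, minimum means of 5 or 6, all probe sets, 3 other scalings, a log2 minimum of 1, an Xist covariate, omission of both activated arrays numbered 3, and of each array in turn. Promoter sequences are from RefSeq (GRCm38.p6). Ccn4, Tmem204, Zfp704 and Rhbdf1 were not in that table. The number of arrays limits the precision.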

Additional observations from a re-analysis of the deposited data

Results flagged for a closer look

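The activation responses of the genotypes differed by the limma test of the difference itself for Il3 (3.57 on the log2 scale, SE 0.36, adjusted p = 0.00556) and Ccn4 (1.91, SE 0.18, adjusted p = 0.00556). Both were higher in activated Cre+ than in activated Cre- cells on every array. Groups of 3 arrays are too small for the test of single outlying samples, which was not run.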

How the results depend on the processing

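Il3 and Ccn4 passed in all 21 settings that tested them, and the 20 genes named for passing or for the smallest p-values in each direction kept the sign of their difference in every setting. Of 123 named genes 22 changed sign in some setting, Ikzf1 among them (-0.07 to 0.19 with each array left out). The count of 2 genes passing (2 positive, 0 negative) did not hold. It was 5 (3 negative) with the replicate number as a replicate block, 4 (2 negative) with the Xist covariate, 11 (8 positive, 3 negative) without the activated arrays numbered 3 and 143 (95 positive, 48 negative) with array weights. Median centring added 1 negative gene, Cd163l1. With a minimum mean of 5 or 6 the count was 0, since Il3 and Ccn4 fell below the minimum. In those fits 376 of 9444 and 246 of 7192 genes had an unadjusted limma p under 0.05, beside 1089 of 23185 (4.70%) over all genes. Leaving out each array in turn gave 2 to 25 genes, 2 to 18 positive and 0 to 7 negative. Omitting Cre- activated array 3 gave 8 genes, omitting Cre+ activated array 3 gave 5 and omitting Cre+ activated array 2 gave 25, and the causes were not tested. Correlations of deviations from the group means do not settle whether the replicate numbers pair samples. They were above 0.1 in 5 of 18 same-numbered pairs (-0.09 to 0.73), and 7 of 12 arrays correlated best with their own number. Between genotypes, activated arrays correlated at 0.73 for number 3, 0.57 for number 2 and -0.05 for number 1. Cre- activated array 1 and Cre+ activated array 2, with unlike numbers, also gave 0.57. The block added Tmem204, Slc15a1 and Zfp704. The other scalings, the variance trend, all probe sets and the log2 minimum gave 2 genes. Under these alternatives 618 values of list medians moved by less than the spread between replicates and 22 moved further. The spread of the 3 activated arrays per group, and readings near the array medians, limit what can be separated.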
